A study of Mus musculus with 9 samples.

Results

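The Gpr161f/+;Wnt1-Cre midbrain (Cre control) was compared with the Gpr161f/f midbrain (floxed control) at E13.5. The 3 libraries of each genotype were taken by their titles, so that 6 of the 9 libraries of the series entered the comparison. The other 3 libraries came from the conditional knockout (cKO, written Gpt161f/f;Wnt1-Cre in the titles, which was read as Gpr161), and they entered only the filter on low values and the estimate of the spread. Embryos of every genotype are labelled C57BL/6, and poly-A selected RNA was sequenced from dissected midbrain tissue. The groups differ in the Wnt1-Cre transgene and in the number of floxed alleles at the same time, since the Cre control carries the transgene and 1 floxed allele beside 1 unmodified allele, while the floxed control carries 2 floxed alleles and no Cre. An effect of the transgene and an effect of losing 1 copy of Gpr161 therefore cannot be told apart. The labels do not say whether the fetuses came from separate litters, so p-values measure the spread between these samples.

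Gpr161, a receptor of the primary cilium that couples to G proteins and has no known ligand, holds Sonic hedgehog (Shh) signaling low through cAMP and protein kinase A. Wnt1 is a secreted ligand made at the border of midbrain and hindbrain and along the dorsal midline, where it stabilizes beta-catenin in the receiving cells and is needed for the midbrain to form. The Wnt1-Cre transgene places Cre recombinase under Wnt1 regulatory DNA, so that recombination takes place in the dorsal neural tube, much of the midbrain and the neural crest. The stock that the study names is a line whose transgene is recorded as inserted in H2afv, also called H2az2, a gene for a variant of histone H2A.Z. A floxed allele is recombined only in that lineage, and tissue from other lineages keeps both alleles. In bulk tissue, fewer cells of a type and less RNA per cell cannot be told apart.

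The table that the authors deposited holds a log2 value for each gene in each library, with the libraries already put on a common scale and with little spread left among low genes. It holds no read counts, so the depth of the libraries is unknown. Of 21356 named genes, 14029 reached 1 cpm (1 count for every 1000000) on the linear scale in at least 3 of the 9 libraries and were tested, which corresponds to a log2 value of about 4.73 to 4.78. All differences below are log2 values of the Cre control minus the floxed control, and they understate the change of low genes for that reason. A gene is said to have risen or fallen where the Benjamini-Hochberg adjusted p of limma was under 0.05, and it is called a differentially expressed gene (DEG) where the fold change was also over 1.5. A gene is said not to overlap where all 3 values of one genotype lie above all 3 of the other.

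Among the 8 genes that differed, Wnt1 rose by far the most, and Pcsk6, Dusp6, Pth1r, Tmem132c and Ank1 were among those that rose with it, while H2afv fell. The DEGs, which included Wnt1, Pcsk6 and Ank1, were 4 of 14029 genes or 0.0285%. The genes that rose were 0.0499% of those tested and the gene that fell was 0.00713%. At an unadjusted p under 0.05, 1231 genes were higher (8.77%) and 1220 were lower (8.7%) in the Cre control. Values did not overlap for 1508 genes that were higher (10.7%) and 1691 that were lower (12.1%), and each count of list members below is to be read against these shares. The median difference over all genes tested was -0.00101.

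**Figure D1:**
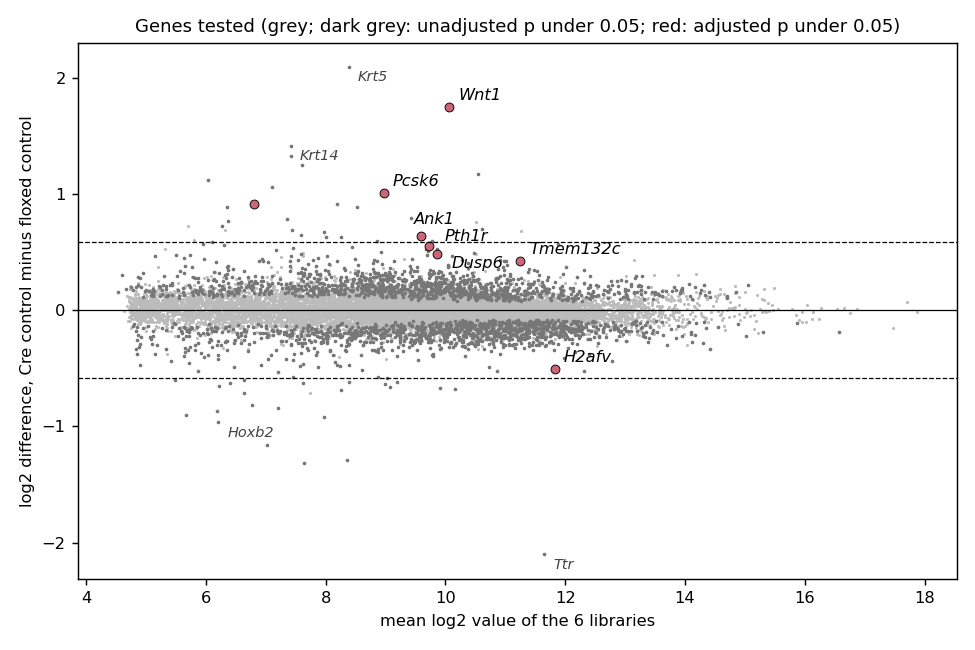
Difference in log2 value, Cre control minus floxed control (vertical axis), against the mean log2 value of the 6 libraries (horizontal axis) for the 14029 genes tested, with dashed lines at a 1.5-fold change. Red points are the 8 genes with an adjusted p under 0.05, led by Wnt1 at 1.75, and Krt5, Ttr and other named grey points have larger differences than most of them with more spread between replicates.

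One library stood apart before any gene was considered. On the first principal component of the 6 libraries, which held 41.7% of the variance, Cre control 1 lay at 16.6 and the other 5 between -10.4 and 2.6. Its Spearman distance to the other 5 libraries was 0.0041 to 0.00639, against 0.00155 to 0.00416 among those 5. When limma estimated a weight for each library, Cre control 1 received 0.21 and the others 0.893 to 2.07. Levels of 4 Y-linked genes were low in floxed control 2 and Cre control 1 and high in the other 4 libraries, so both genotypes were mixed in this respect. Genes of the midbrain region were expressed in every library, with En1 between 10.63 and 10.89, En2 between 12.09 and 12.63 and Otx2 between 11.28 and 11.58. These levels do not exclude tissue next to the midbrain, whose genes are given below.

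Gpr161 itself was not lower in the Cre control. Its values were 11.80, 11.74 and 11.78 in floxed controls 1, 2 and 3, and 11.77, 11.91 and 11.96 in Cre controls 1, 2 and 3. The genotypes overlapped, and the difference was 0.11 (SE 0.0654, limma adjusted p = 0.415). Since the table sums the reads of a gene and since tissue outside the Wnt1-Cre lineage keeps both alleles, the level of this gene does not measure how many copies were recombined. The Gpr161 gene lies on chromosome 1 from 165295789 to 165326745 on the plus strand (GRCm38).

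Wnt1 (chromosome 15, 98789857 to 98793837, plus strand, GRCm38) had values of 9.22, 9.08 and 9.25 in the floxed controls and 11.01, 10.91 and 10.89 in the Cre controls. Every Cre control was far above every floxed control, and the replicates of each genotype were close together, with means of 9.19 ± 0.0907 (SD, n = 3) and 10.94 ± 0.065 (SD, n = 3). Wnt1 was 3.36-fold higher, a log2 difference of 1.75 with an SE of 0.0709 (limma adjusted p = 3.47e-06). It was past the threshold in all 17 alternatives, with limma adjusted p-values between 1.1e-06 and 0.000129. Transcripts of a transgene that carries Wnt1 sequence and transcripts of the endogenous gene cannot be told apart in a table of 1 value per gene.

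H2afv (chromosome 11, 6427229 to 6444443, minus strand) was the single gene that fell. Its values were 12.09, 12.07 and 12.09 in the floxed controls and 11.76, 11.48 and 11.48 in the Cre controls. The floxed controls were almost identical, Cre control 1 lay between them and the other Cre controls, and the genotypes did not overlap. H2afv fell by 0.51 on the log2 scale, 1.42-fold (SE 0.0674, limma adjusted p = 0.0372). The call was lost under 9 of the 17 alternatives, with limma adjusted p-values of up to 0.293 without floxed control 3, and H2afv was lower in the Cre control in each of them.

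Pcsk6 (chromosome 7, 65861734 to 66050386) encodes a proprotein convertase, a secreted protease that cleaves the precursors of growth factors such as those of the TGF-beta family. Its values were 8.37, 8.44 and 8.60 in the floxed controls and 9.44, 9.41 and 9.58 in the Cre controls. The genotypes lay far apart, with 2.01-fold more Pcsk6 in the Cre control (log2 difference 1.01, SE 0.103, limma adjusted p = 0.0128). The call was lost under 1 alternative, without Cre control 3 (limma adjusted p = 0.0575).

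Dusp6 (chromosome 10, 99263231 to 99267489) encodes a phosphatase that inactivates the kinase ERK and is itself induced by Fgf signaling. Its values were 9.53, 9.66 and 9.67 in the floxed controls and 10.10, 10.10 and 10.11 in the Cre controls. The 3 Cre controls were nearly equal and stood above all floxed controls. Dusp6 was 1.4-fold higher (log2 difference 0.48, SE 0.0528, limma adjusted p = 0.0152). The call was lost with the 6 libraries alone and without floxed control 3 or Cre control 3, with limma adjusted p-values of up to 0.0697.

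Pth1r (chromosome 9, 110722085 to 110747145), the receptor for parathyroid hormone and its related protein, had values of 9.43, 9.57 and 9.34 in the floxed controls and 10.03, 9.99 and 9.97 in the Cre controls. All Cre controls were higher, with more spread among the floxed controls. The gene was 1.46-fold higher (log2 difference 0.55, SE 0.0618, limma adjusted p = 0.0152). Tmem132c (chromosome 5, 127241808 to 127565793), a membrane protein, had values of 11.05, 11.08 and 10.97 against 11.44, 11.54 and 11.38. No value overlapped, and it was 1.34-fold higher (log2 difference 0.42, SE 0.0518, limma adjusted p = 0.0286). Both calls were lost with the 6 libraries alone and without floxed control 3 or Cre control 3, and that of Tmem132c also with the erythroid genes as a covariate, with limma adjusted p-values of up to 0.0993 for Pth1r and 0.231 for Tmem132c.

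Ank1 (chromosome 8, 22974844 to 23150497) encodes an ankyrin that ties membrane proteins to the spectrin skeleton, in red blood cells among others, and the mean of the erythroid genes was 10.72, 11.31 and 10.93 in the floxed controls and 11.05, 10.97 and 10.94 in the Cre controls. The values of Ank1 were 9.23, 9.45 and 9.17 in the floxed controls and 9.84, 9.94 and 9.96 in the Cre controls. All Cre controls were above the floxed controls, and Ank1 was 1.55-fold higher (log2 difference 0.63, SE 0.0813, limma adjusted p = 0.0337). The call was lost under 8 of 17 alternatives, with limma adjusted p-values of up to 0.231 without floxed control 3. Among these alternatives was the fit with the erythroid genes as a covariate (limma adjusted p = 0.078).

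**Figure D2:**
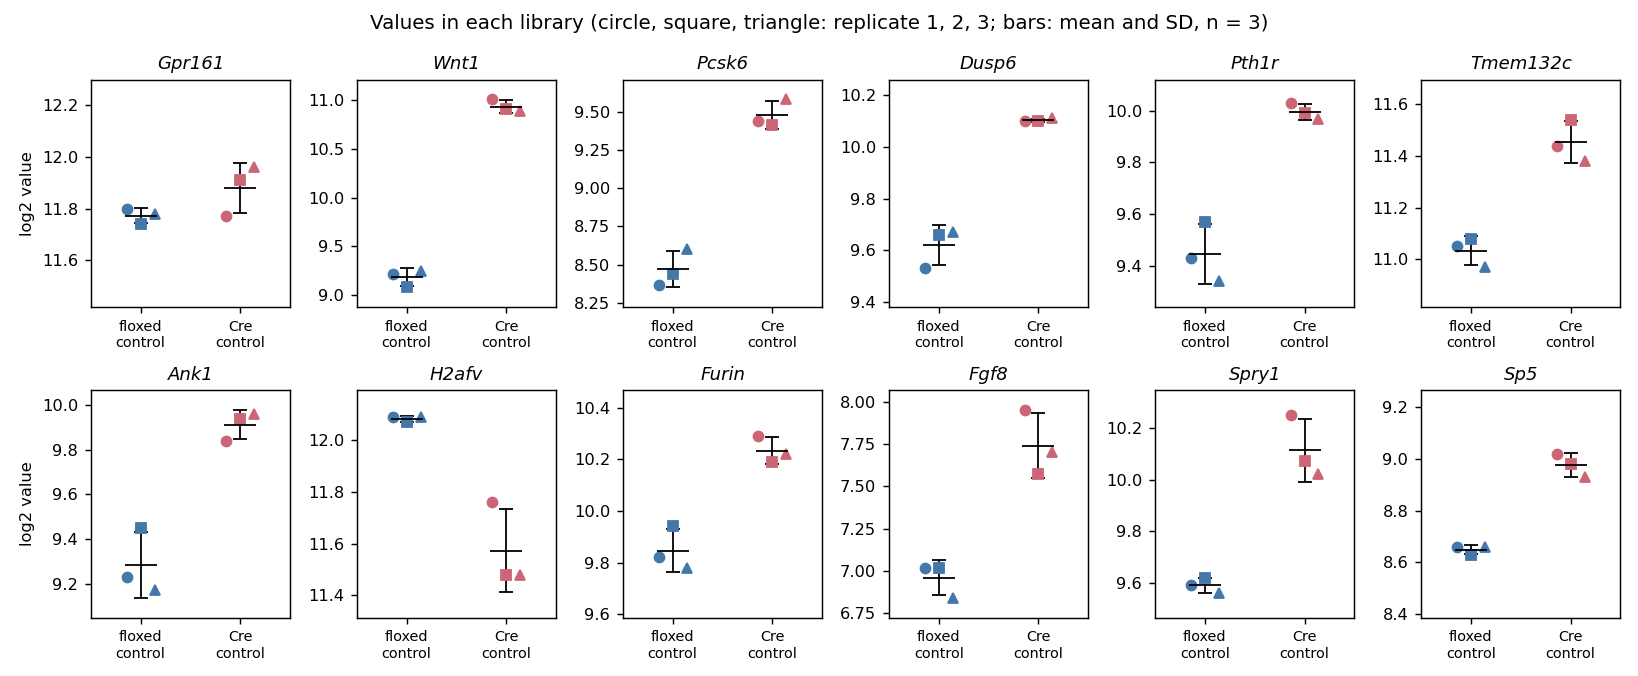
Log2 value of Gpr161, of 7 genes with an adjusted p under 0.05 and of Furin, Fgf8, Spry1 and Sp5 in each library, with bars for the mean and SD (n = 3). The genotypes overlap for Gpr161, and for every other gene shown all 3 Cre controls lie on one side of the 3 floxed controls, with H2afv at 11.48 to 11.76 in the Cre control below 12.07 to 12.09.

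The promoters of 4 of these genes are shown because Wnt1 supplies the regulatory DNA of the transgene, H2afv is its recorded insertion site, Pcsk6 is the DEG next to Wnt1 in size of change and Dusp6 is a direct readout of Fgf signaling. Each sequence holds the 250 bases before the start of transcription in RefSeq (GRCm38.p6), read 5′ to 3′ on the gene's strand, with CCAAT boxes on either strand in capitals. The positions are chr15:98789607-98789856 for Wnt1 (plus strand), chr7:65861886-65862135 for Pcsk6 (plus), chr10:99262981-99263230 for Dusp6 (plus) and chr11:6444444-6444693 for H2afv (minus).
Wnt1: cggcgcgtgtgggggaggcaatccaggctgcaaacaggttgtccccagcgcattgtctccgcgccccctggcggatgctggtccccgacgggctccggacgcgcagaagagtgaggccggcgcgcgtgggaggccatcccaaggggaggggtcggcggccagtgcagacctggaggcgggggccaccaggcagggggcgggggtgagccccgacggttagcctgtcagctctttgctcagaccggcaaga
Pcsk6: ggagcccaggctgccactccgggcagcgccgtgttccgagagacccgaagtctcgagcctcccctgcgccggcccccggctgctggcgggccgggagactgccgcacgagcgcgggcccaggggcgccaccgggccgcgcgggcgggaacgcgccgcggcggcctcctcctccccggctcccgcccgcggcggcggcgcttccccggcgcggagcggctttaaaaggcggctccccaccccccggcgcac
Dusp6: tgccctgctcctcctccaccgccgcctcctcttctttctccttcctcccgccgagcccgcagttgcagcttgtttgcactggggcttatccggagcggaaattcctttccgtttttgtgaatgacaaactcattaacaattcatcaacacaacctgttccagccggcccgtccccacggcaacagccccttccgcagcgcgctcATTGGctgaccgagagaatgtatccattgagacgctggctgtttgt
H2afv: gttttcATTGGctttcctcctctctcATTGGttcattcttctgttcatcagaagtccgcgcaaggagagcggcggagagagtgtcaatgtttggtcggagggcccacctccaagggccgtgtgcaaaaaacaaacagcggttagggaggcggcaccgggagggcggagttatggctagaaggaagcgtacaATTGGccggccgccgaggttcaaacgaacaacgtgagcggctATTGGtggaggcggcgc
In windows of 300 bases that also take in the 50 bases after the start, H2afv held 4 CCAAT boxes, Dusp6 held 1 and Wnt1 and Pcsk6 held 0, against 37.4% of 32851 RefSeq promoter windows with at least 1. The GC content was 70.7% for Wnt1, 81.7% for Pcsk6, 57.3% for Dusp6 and 60.7% for H2afv. A TCF/LEF motif (CTTTGAT or CTTTGAA, either strand) was found in 8.65% of all windows and an ETS motif (CCGGAAG, either strand) in 8.86%. Neither was found in the windows of the 6 genes that matched the table, which besides these 4 were Pth1r and Tmem132c. Ank1 had no entry.

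The genes around Gpr161, Wnt1 and H2afv were examined next. None of the neighbours that reached within 1 Mb of Gpr161, Wnt1 or H2afv was past the limma adjusted p, among 14, 48 and 27 genes tested. At an unadjusted p under 0.05, 2 neighbours of Gpr161 were higher and 1 was lower, against 7 and 9 for Wnt1 and 1 and 7 for H2afv. The median difference was 0.0334 around Gpr161, 0.00951 around Wnt1 and -0.00529 around H2afv.

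Of the nearest genes tested on either side of Wnt1, the first was at the limit of the filter and the other overlapped. Wnt10b, another Wnt ligand, at -17.4 kb (toward lower coordinates, from midpoint to midpoint), had values of 4.44, 4.44 and 4.45 in the floxed controls and 4.59, 4.92 and 4.73 in the Cre controls. The floxed controls and Cre control 1 were below the filter, which the gene passed only through libraries where it was higher, cKO libraries included, so its difference of 0.30 (limma adjusted p = 0.149) is given as a value only. Ddn, 14.8 kb on the other side, differed by 0.32 but overlapped, with 8.72, 8.53 and 8.85 against 9.38, 8.80 and 8.87. Prph, which encodes the neurofilament peripherin, was the neighbour with the largest difference at -0.69, with values of 8.15, 8.67 and 9.0 against 8.03, 7.92 and 7.81. Floxed control 1 lay close to the Cre controls for Prph, as it did for the sensory ganglion genes given below. Around H2afv, the nearest genes tested differed by -0.005 for Ppia, 0.033 for Purb and -0.16 for Zmiz2, and the neighbours farthest from 0 were Camk2b and Nacad, each at -0.33.

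**Figure D3:**
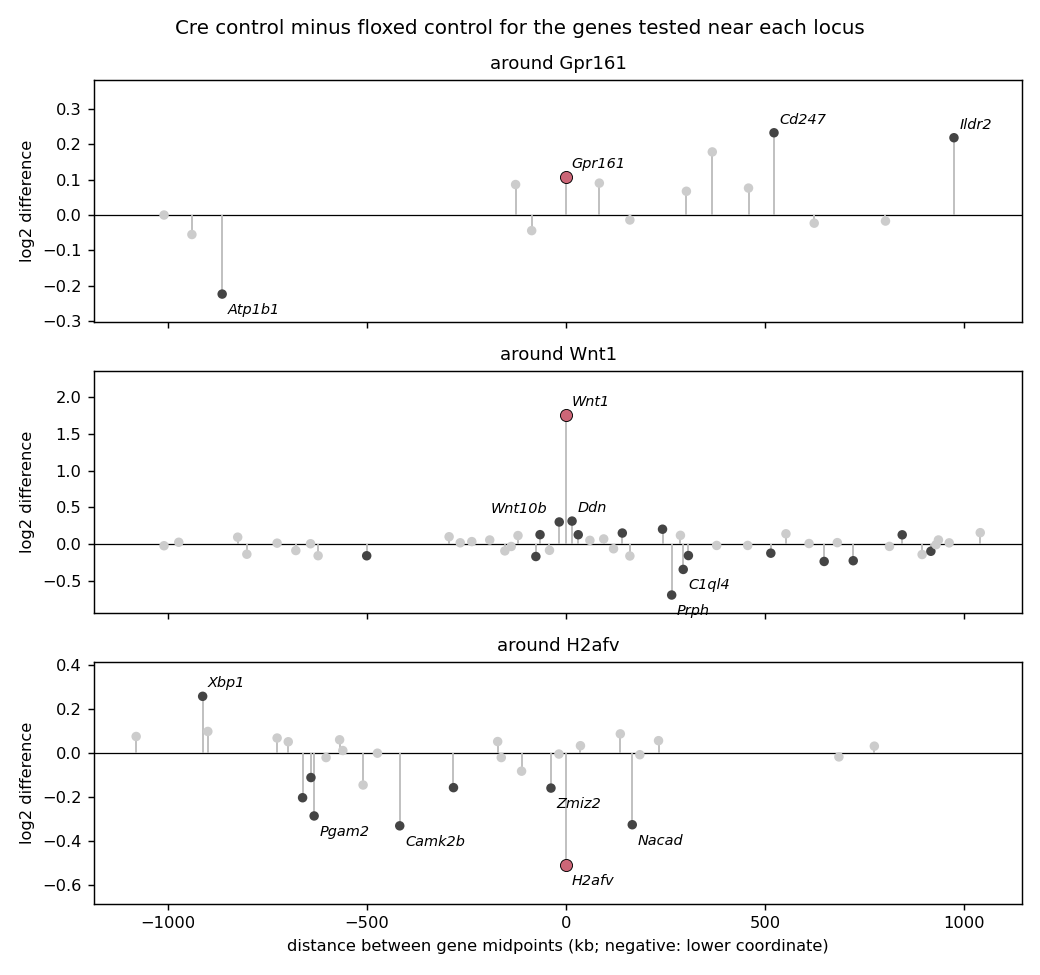
Difference in log2 value, Cre control minus floxed control (vertical axes, each to its own scale), for the genes tested around Gpr161, Wnt1 and H2afv, against the distance in kb between gene midpoints. Red is the gene named, dark points have an unadjusted p under 0.05, and no neighbour comes near the 1.75 of Wnt1.

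Most Wnt ligands had higher means in the Cre control. Of 19 members, 17 were tested, 15 were higher and 2 lower, 1 passed the adjusted test (Wnt1), and the median difference was 0.287. At an unadjusted p under 0.05, 8 were higher and 0 lower, and the same counts did not overlap. Leaving out Wnt10b, which is at the limit of the filter, these counts were 7 and 0 of 16 and the median was 0.279. Wnt6 had values of 7.69, 7.77 and 7.61 in the floxed controls and 7.98, 8.78 and 8.20 in the Cre controls, a difference of 0.63 (limma adjusted p = 0.151). Wnt10a differed by 0.38 and Wnt4 by 0.36, and both were highest in Cre control 2 and next in Cre control 3, the same order as Wnt6. Wnt3a and Wnt7b, dorsal and progenitor ligands, differed by -0.07 and -0.05.

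A list of surface ectoderm genes, written after the values were seen and given as a description, had the same order of the Cre controls as these ligands. The mean log2 value of its 20 genes was 6.35, 6.50 and 6.48 in the floxed controls and 6.55, 7.43 and 7.04 in the Cre controls. Krt5, a keratin of the basal epidermis, had the largest positive difference of all genes tested, with values of 7.30, 7.33 and 7.39 against 8.12, 10.48 and 9.70. Krt5 differed by 2.09, Krt14 by 1.41, Krt15 by 1.32 and Krt17 by 0.88, with limma adjusted p-values between 0.14 and 0.167. All 4 were far higher in Cre controls 2 and 3 than in Cre control 1, although none overlapped. In the list, 18 of 20 genes were higher, 11 did not overlap and were higher, and the median difference was 0.447. The median of the Wnt ligands, 0.287 in the main fit, was 0.382 without Cre control 1 and 0.183 without Cre control 2. With the level of this list as a covariate it was 0.0894. Wnt1 stayed past the threshold in each of these fits. The level of the list was itself higher in every Cre control than in any floxed control. The fit with the covariate therefore cannot separate this level from the genotype. The part of surface ectoderm in the levels of the ligands was not tested.

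Receptors and cofactors of Wnt signaling were close to equal. Of 23 tested, 17 were higher and 6 lower, 0 passed the adjusted test in limma, 4 were higher at an unadjusted p under 0.05, and the median was 0.0551. Rspo2, which amplifies Wnt signals at the receptor, differed by 0.37, and Wls, which carries Wnt proteins to the cell surface, by 0.15. Secreted antagonists were divided, with 8 higher and 5 lower of 13 tested, 3 higher and 3 lower at an unadjusted p under 0.05, and 0 past the adjusted test. Frzb differed by -0.39 and Draxin by -0.21, both without overlap, while Apcdd1 differed by 0.21 without overlap and Dkk2 by 0.52 with overlap.

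Feedback and readout genes of beta-catenin were higher by small amounts. Of 19 tested, 17 were higher and 2 lower, 10 were higher at an unadjusted p under 0.05 with 0 lower, 10 were higher without overlap, and the median was 0.146. None passed the adjusted test. These 10 include Tcf7l1 and Kremen1, components of the pathway rather than usual readouts, which differed by 0.22 and 0.20. Tnfrsf19 had values of 11.26, 11.39 and 11.28 in the floxed controls and 11.56, 11.74 and 11.65 in the Cre controls, and Sp5 had 8.66, 8.63 and 8.66 against 9.02, 8.98 and 8.93. The replicates of Sp5 were tight in both genotypes, and the differences were 0.34 for Tnfrsf19 and 0.32 for Sp5 (both limma adjusted p = 0.0623). Axin2, the feedback gene most used as a readout, was at 11.08, 11.12 and 11.16 against 11.23, 11.22 and 11.19. It did not overlap, and its difference was 0.0975 (limma adjusted p = 0.232). Lef1 overlapped, with a difference of 0.15, and Tcf7 and Ccnd1 each differed by 0.25.

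Feedback genes of the Fgf pathway were mostly higher. Dusp6 was the only one of the 15 feedback genes past the adjusted test, with 8 higher and 2 lower at an unadjusted p under 0.05, the same counts without overlap, and a median of 0.147. Spry1, an inhibitor of receptor signaling, had values of 9.59, 9.62 and 9.56 in the floxed controls and 10.25, 10.07 and 10.02 in the Cre controls, a difference of 0.52 (limma adjusted p = 0.113). Il17rd (Sef) differed by 0.42, Etv4 by 0.34 and Spry4 by 0.28, and of these Etv4 overlapped. Spry1, Il17rd and Etv4 were highest in Cre control 1, while Dusp6 was nearly equal among the Cre controls. Among the floxed controls, Il17rd and Etv4 were highest in floxed control 1. Dusp4 and Spry3 were lower, at -0.23 and -0.19.

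The list of Fgf family members held 12 tested genes, of which 4 (Fgf11 to Fgf14) are intracellular proteins that bind sodium channels in neurons and are not ligands. Of the 8 secreted ligands, 5 were higher and 3 lower, with 2 and 0 at an unadjusted p under 0.05, 0 past the adjusted test and a median of 0.026. All 4 intracellular members were lower at an unadjusted p under 0.05, and they brought the median of the whole list to -0.117 (-0.0651, -0.0712 and 0.00966 without floxed control 1, floxed control 3 and Cre control 3). This division of the list was made after the values were seen. Fgf8, the signal of the isthmic organizer, had values of 7.02, 7.02 and 6.84 in the floxed controls and 7.95, 7.57 and 7.70 in the Cre controls. The genotypes did not overlap and the difference was 0.79 (limma adjusted p = 0.0755). Fgf17, which is made next to Fgf8 in the isthmus, was at 8.86, 8.58 and 8.52 against 9.32, 9.0 and 8.91, a difference of 0.42 without overlap. Fgf8 and Fgf17 were highest in Cre control 1, and among the floxed controls Fgf17 was highest in floxed control 1. The part of Cre control 1 in these differences was not tested. Fgf18, a relative of Fgf17, differed by 0.0414. The intracellular Fgf12 and Fgf13 each differed by -0.27. None of the 5 receptors tested had an unadjusted p under 0.05.

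Of 11 genes listed for the isthmic organizer, 2 were higher and 1 lower at an unadjusted p under 0.05. None was past the adjusted test, and the median was 0.148. All but Cnpy1 encode transcription factors, and 10 of the 11 had higher means in the Cre control. The exception was Pax2, which was at 7.62, 7.48 and 8.14 in the floxed controls and 7.16, 7.45 and 6.92 in the Cre controls, a difference of -0.57 without overlap (limma adjusted p = 0.174). Cnpy1 differed by 0.37 and En2 by 0.23, and both were highest in Cre control 1 and overlapped. The 2 genes higher at an unadjusted p under 0.05 were Cnpy1 and Grhl3. Grhl3 was at 6.46, 6.37 and 6.44 in the floxed controls and 6.41, 6.8 and 6.76 in the Cre controls, with overlap. Only Cre controls 2 and 3 lay above the floxed controls, the libraries in which the surface ectoderm list was highest. En1 differed by 0.13, Otx2 by 0.15, Pax5 by 0.17 and Gbx2 by 0.13, all with overlap.

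Targets of Shh signaling, the pathway that Gpr161 restrains, were near equal. Of 14 tested, 13 were higher and 1 lower, 3 were higher at an unadjusted p under 0.05, 0 passed the adjusted test and the median was 0.0609, or 0.118 without Cre control 1. The list includes the co-receptors Gas1, Boc and Cdon, which Shh signaling represses, and without these 3 the counts were 10 higher and 1 lower of 11, with 2 higher at an unadjusted p under 0.05 and a median of 0.054. Gli1, the most direct target, had values of 8.55, 8.71 and 8.59 in the floxed controls and 8.66, 8.60 and 8.69 in the Cre controls. Gli1 overlapped with a difference of 0.0296, Ptch1 differed by -0.0837 and Hhip by 0.0541. The targets higher at an unadjusted p under 0.05 were Nkx6-2 at 0.33 and Nkx2-9 at 0.26, and the co-receptor Gas1 differed by 0.33. The transducers were 8 higher and 9 lower of 17, 2 and 1 of them at an unadjusted p under 0.05, with a median of -0.0134, and Smo differed by 0.17 without overlap.

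Notch pathway genes were 16 higher and 6 lower of 22, with 5 and 1 at an unadjusted p under 0.05, 0 past the adjusted test and a median of 0.0632. Hes3, a repressor that keeps midbrain and isthmic progenitors undifferentiated, was at 7.23, 7.11 and 7.23 in the floxed controls and 8.03, 7.57 and 7.57 in the Cre controls. It did not overlap, and its difference of 0.53 (limma adjusted p = 0.139) was the largest in the list. Hes3, too, was highest in Cre control 1. Heyl differed by 0.29, Mfng by 0.23 and the ligand Jag1 by 0.20. BMP, roof plate and dorsal genes were 10 higher and 11 lower of 21, 3 and 4 of them at an unadjusted p under 0.05, with a median of -0.00643, and Msx3 differed by -0.47 and Bmp4 by 0.26, both with overlap.

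Proprotein convertases and ankyrins were listed for Pcsk6 and Ank1. Of 9 convertases tested, 5 were higher and 4 lower, Pcsk6 rose, and the median was 0.0195, or 0.0018 to 0.0838 with 1 library left out, the highest without Cre control 1 and the lowest without Cre control 2. Furin, which cleaves many of the same substrates, had values of 9.82, 9.94 and 9.78 in the floxed controls and 10.29, 10.19 and 10.22 in the Cre controls, a difference of 0.39 without overlap (limma adjusted p = 0.0755). Pcsk5 differed by -0.03. Of 9 ankyrins and spectrins, Ank1 was the only one that was higher, and the median was -0.142, or -0.0817 without Cre control 1 and -0.23 without Cre control 3. Sptbn4 differed by -0.30 and Ank3 by -0.26, and both were lowest in Cre control 1.

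**Figure D4:**
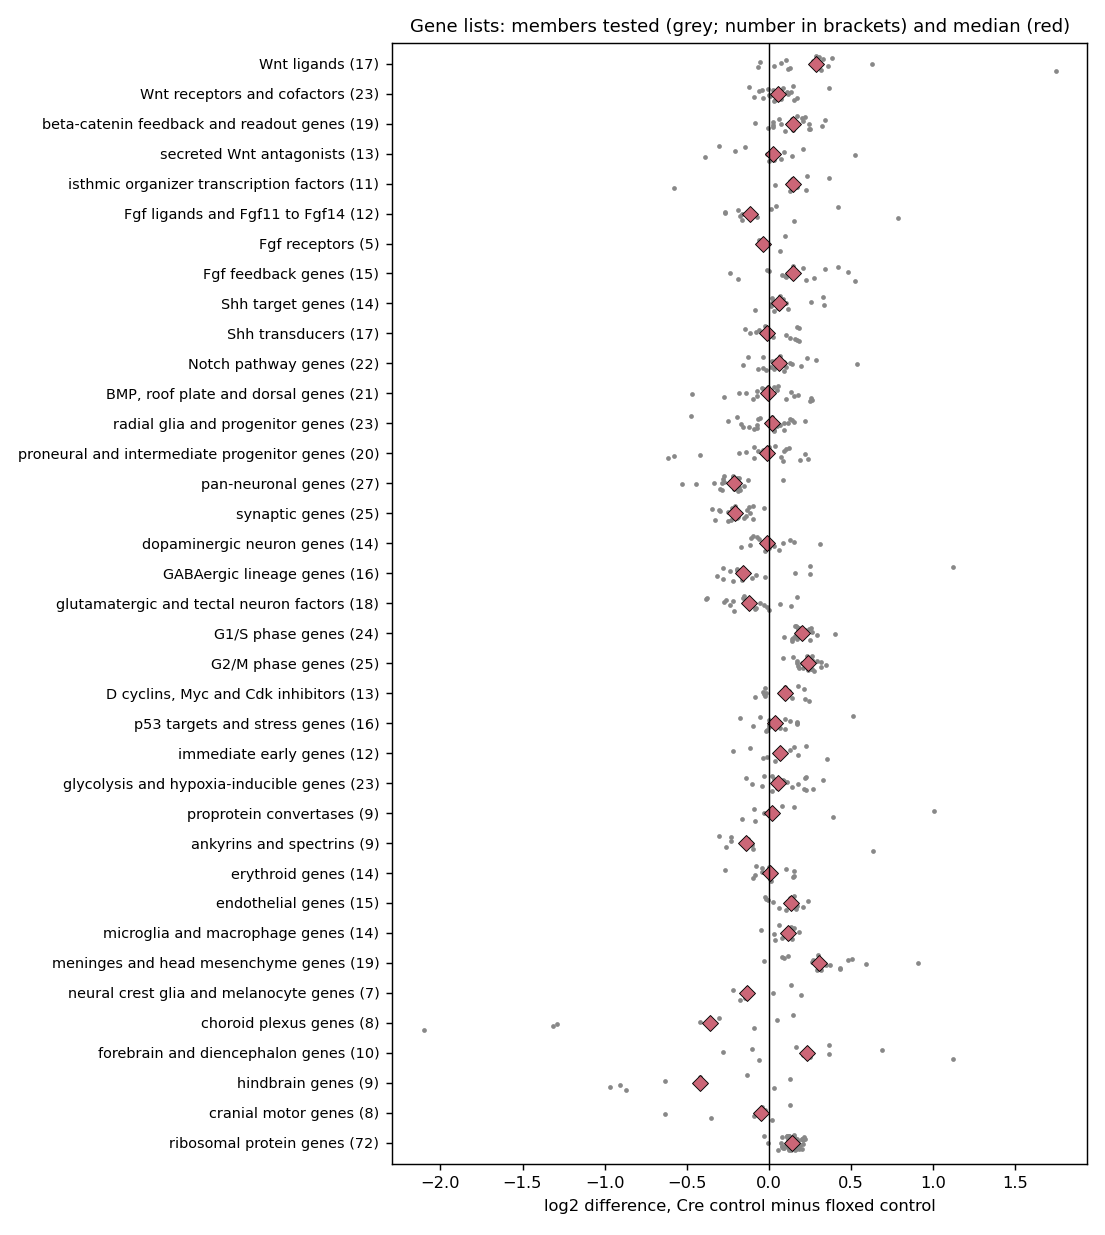
Difference in log2 value, Cre control minus floxed control (horizontal axis), for each tested member of the gene lists (grey points) and the median of each list (red diamonds), with the number of genes tested in brackets. The medians of the G1/S, G2/M and Wnt ligand lists lie at 0.199, 0.236 and 0.287, those of pan-neuronal and synaptic genes at -0.213 and -0.207, and that of hindbrain genes at -0.42.

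Genes of the cell cycle were higher and genes of neurons were lower in the Cre control, each by a small amount per gene and with Cre control 1 the farthest out. All 24 G1/S genes and all 25 G2/M genes tested were higher, 22 and 24 of them at an unadjusted p under 0.05, with 0 past the adjusted test in limma. The mean of the G1/S list was 10.40, 10.36 and 10.37 in the floxed controls and 10.67, 10.54 and 10.53 in the Cre controls. The mean of the G2/M list was 10.74, 10.68 and 10.69 against 11.06, 10.84 and 10.91. The medians were 0.199 and 0.236, or 0.152 and 0.181 without Cre control 1. Gins2, a subunit of the replication helicase, differed by 0.41, and the mitotic kinase genes Aurkb and Bub1 by 0.35 and 0.32. Ccnd2, a cyclin of neural progenitors, was at 13.97, 13.95 and 13.92 against 14.27, 14.06 and 14.18, a difference of 0.22 without overlap.

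Pan-neuronal genes were lower in 26 of 27 cases, 19 of them at an unadjusted p under 0.05, and synaptic genes in 25 of 25, 12 of them so. The medians were -0.213 and -0.207, with 0 past the adjusted test. The mean of the pan-neuronal list was 12.95, 12.88 and 12.99 in the floxed controls and 12.53, 12.79 and 12.81 in the Cre controls. Without Cre control 1 the medians were -0.123 and -0.0871, Neurofilaments had the largest differences, with Nefm at 12.40, 12.54 and 12.78 against 11.85, 12.23 and 12.06, a difference of -0.53, and Nefl at -0.44. Ribosomal protein genes were higher in 70 of 72 cases, 31 of them at an unadjusted p under 0.05, with a median of 0.139. The median was 0.0567 without Cre control 1, whose mean over the list was 13.79 against 13.52 and 13.56 in the other Cre controls, and all 3 floxed controls were below these.

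Progenitor genes did not share the sign of the cell cycle list. Of 23 radial glia and progenitor genes, 12 were higher and 11 lower, 2 and 3 of them at an unadjusted p under 0.05, with a median of 0.0224 and 0 past the adjusted test. Sox2 and Nes differed by 0.03 and 0.05. Hopx, a homeodomain protein of radial glia, was at 8.43, 8.30 and 8.56 in the floxed controls and 7.99, 7.92 and 7.95 in the Cre controls, a difference of -0.48 without overlap (limma adjusted p = 0.0623). Of 20 proneural genes, 9 were higher and 11 lower, 2 and 5 of them at an unadjusted p under 0.05, with Neurog2 at 0.24 and Neurod2, Neurod6 and Atoh1 at -0.61, -0.58 and -0.42. Neurod6 was at 9.01, 9.12 and 9.34 against 8.60, 8.80 and 8.35.

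Among neuron types, dopaminergic genes were 7 higher and 7 lower of 14, with 0 at an unadjusted p under 0.05, and Th differed by -0.0208. GABAergic genes were 4 higher and 12 lower of 16, 1 and 5 of them at an unadjusted p under 0.05, with a median of -0.155, or -0.0542 without Cre control 1 and -0.238 without Cre control 3. The 1 higher gene was Dlx1, at 1.12, which is also in the list of forebrain genes below. Gata3, a factor of midbrain GABAergic neurons, was at 10.60, 10.34 and 10.53 against 10.05, 10.14 and 10.32, a difference of -0.32. Glutamatergic and tectal factors were 4 higher and 14 lower of 18, 7 of them lower at an unadjusted p under 0.05, with a median of -0.118, or -0.0237 without floxed control 1. Meis1 and Meis2 differed by -0.38 and -0.37, neither with overlap, and the vesicular glutamate transporter Slc17a6 by -0.21.

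Levels of genes from regions and tissues next to the midbrain differed between libraries, and several of the largest differences lay among them. Hindbrain genes were lower in 7 of 9 cases, 6 of them at an unadjusted p under 0.05 and 5 without overlap, with a median of -0.42. The mean of the list was 6.63, 6.80 and 7.13 in the floxed controls and 6.28, 6.61 and 6.28 in the Cre controls, so that Cre control 2 was close to floxed control 1. Hoxb2 differed by -0.96, Hoxb3 by -0.91 and Hoxa2 by -0.87, with limma adjusted p-values of 0.145, 0.166 and 0.113. Hoxa2, a Hox gene of the anterior hindbrain, was at 6.48, 6.50 and 6.88 against 5.58, 6.13 and 5.53. Other genes with large negative differences included Slc6a5, the glycine transporter of inhibitory neurons, at -0.65, Lbx1 at -0.82 and Otp at -0.68.

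Ttr, which encodes transthyretin and marks choroid plexus, had the largest difference of all genes tested at -2.10. Its values were 11.13, 13.65 and 13.32 in the floxed controls and 10.51, 12.35 and 8.95 in the Cre controls. Floxed control 1 was below Cre control 2, so the genotypes overlapped (limma adjusted p = 0.243). Kcne2 and Clic6, at -1.31 and -1.29, followed the same order of libraries. Of 8 choroid plexus genes, 2 were higher and 6 lower, and 0 were without overlap. The median was -0.36, between -0.685 without floxed control 1 and -0.104 without floxed control 2, and it was -0.204 and -0.585 without Cre controls 1 and 2.

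Forebrain genes were 7 higher and 3 lower of 10, with a median of 0.231 that was 0.383 without Cre control 1, 0.0978 without Cre control 3 and -0.0578 at a minimum of 5 cpm. Dlx1, a factor of forebrain interneurons, was at 5.26, 5.71 and 5.44 in the floxed controls and 5.33, 6.69 and 7.75 in the Cre controls. Cre controls 3 and 2 were high and Cre control 1 was not. Nkx2-1 differed by 0.69 and was also highest in Cre controls 3 and 2. Its value in floxed control 2, 6.51, was above that in Cre control 1, 5.87, and close to the 6.82 of Cre control 2. Genes of sensory ganglia, another list written after the values were seen, averaged 7.05, 7.46 and 7.56 against 7.08, 6.99 and 6.97, with floxed control 1 at the level of the Cre controls. The part of dissection in any of these differences was not tested.

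Meninges and head mesenchyme genes, some of which come from Wnt1-Cre neural crest, were higher in 18 of 19 cases with a median of 0.306, or 0.507 and 0.172 without floxed controls 2 and 3. The mean of the list was 10.07, 10.52 and 9.88 in the floxed controls and 10.30, 10.68 and 10.50 in the Cre controls, so that floxed control 2 lay above Cre controls 1 and 3. There were 8 higher at an unadjusted p under 0.05, 3 without overlap and 0 past the adjusted test. Twist2 was at 8.05, 8.03 and 7.15 against 8.34, 9.06 and 8.56, a difference of 0.91, and Cxcl14, a chemokine outside the list, differed by 1.17. Endothelial genes were 12 higher and 3 lower of 15 with a median of 0.137 (0.048 without floxed control 1, 0.0766 without Cre control 2). Only 1 was higher at an unadjusted p under 0.05, and 0 were without overlap. Microglial genes were 13 higher and 1 lower of 14 with a median of 0.114 (0.04 without floxed control 1). Of these, 2 were higher at an unadjusted p under 0.05, and 2 without overlap. Erythroid genes were 8 higher and 6 lower of 14 with a median of 0.00442. Neural crest glia and melanocyte genes were 3 higher and 4 lower of the 7 tested, out of 12, and Sox10, which defines the glial lineage, differed by -0.18.

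**Figure D5:**
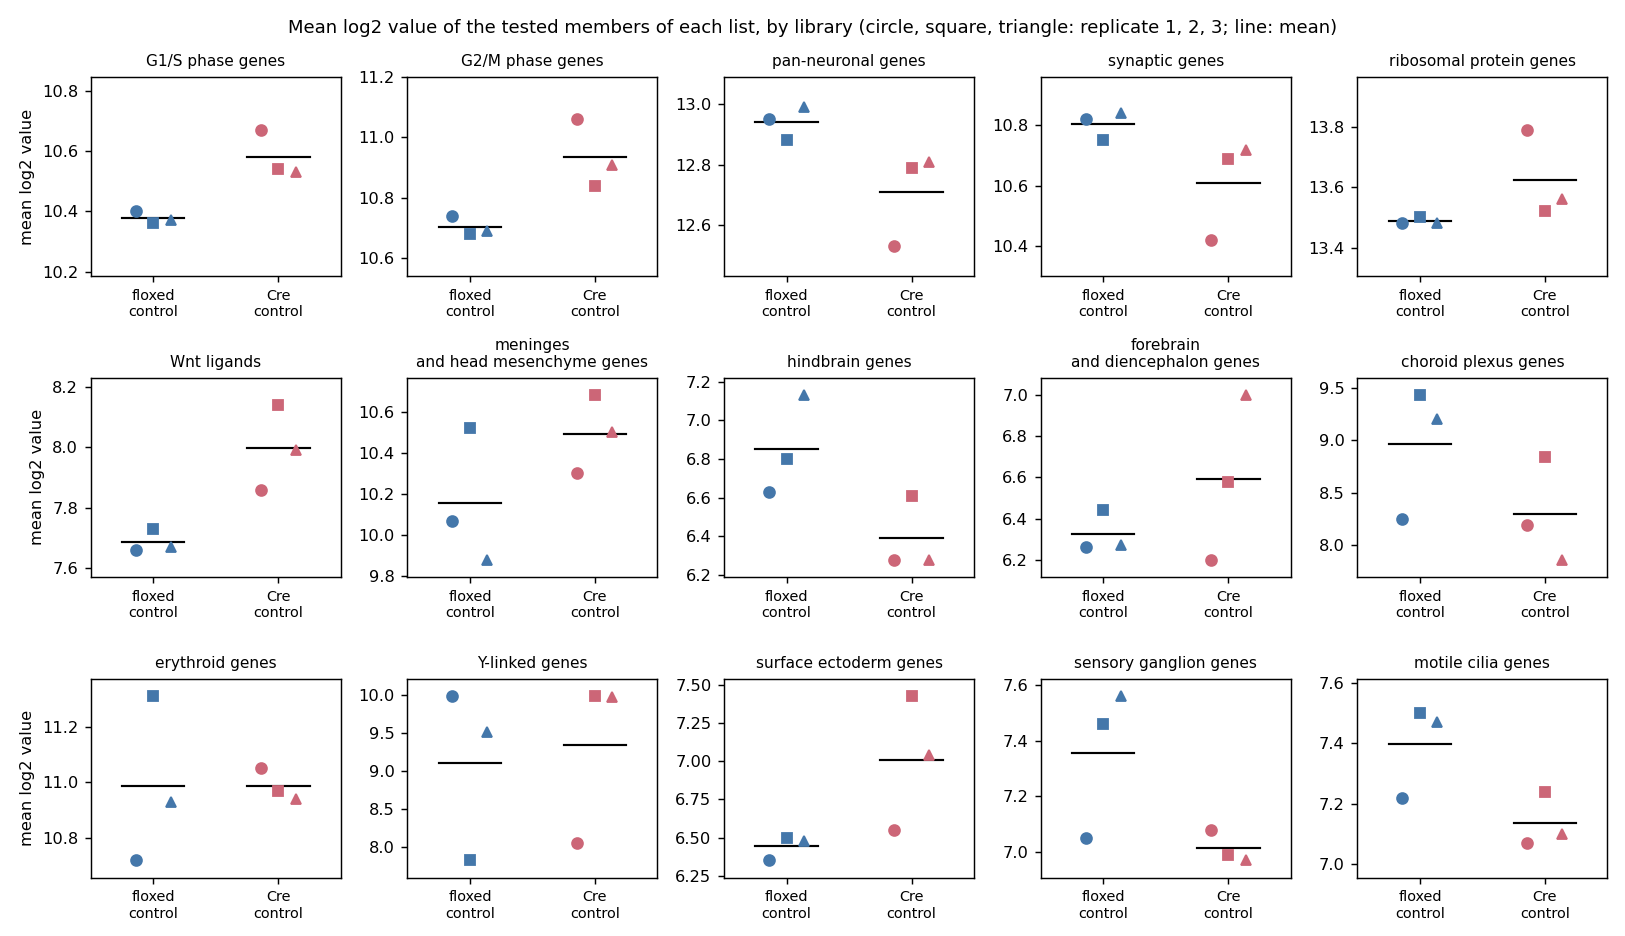
Mean log2 value of the tested members of 15 gene lists in each library, with a line at the mean of each genotype and each panel on its own scale. Cre control 1 is the outermost library for the cell cycle, neuronal, synaptic and ribosomal lists, Cre controls 2 and 3 are highest for surface ectoderm, and floxed control 1 lies with the Cre controls for choroid plexus, sensory ganglion and motile cilia genes.

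Stress and growth lists held no gene past the adjusted test. Targets of p53 were 9 higher and 7 lower of 16, 6 and 2 of them at an unadjusted p under 0.05, with a median of 0.0379, or 0.0754 without Cre control 1, Cdkn1a differed by -0.02, and the largest difference was Perp at 0.51, which is also a surface ectoderm gene and followed the keratins across libraries. D cyclins, Myc and Cdk inhibitors were 7 higher and 6 lower of 13, with 4 higher and 0 lower at an unadjusted p under 0.05. Glycolysis and hypoxia-inducible genes were 19 higher and 4 lower of 23, 8 of them higher at an unadjusted p under 0.05, with a median of 0.0562, or 0.107 without Cre control 1. Hk2, the hexokinase of growing cells, was at 9.07, 8.91 and 9.03 against 9.27, 9.31 and 9.42, a difference of 0.33 without overlap. Immediate early genes were 8 higher and 4 lower of 12, 1 and 1 of them at an unadjusted p under 0.05, with Fos at 0.04 and Dusp1 at -0.22. Cranial motor genes were 2 higher and 6 lower of 8, with 0 and 2 at an unadjusted p under 0.05 and a median of -0.0487, which was 0.00641 without Cre control 1, -0.0126 without floxed control 3, -0.129 and -0.126 without floxed control 2 and Cre control 2, and 0.0223 at a minimum of 5 cpm.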

How the data were processed

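RNA from E13.5 mouse midbrain was sequenced by the authors after poly-A selection. Per the labels, their processing notes name FastQC 0.10.1, kallisto 0.46.1, DESeq2 and mm10. The deposited table holds log2 values, normalized between libraries by the authors, and the transformation is not given in the sources used here. The table has 27360 rows, of which 5764 lack a name, and 4840 hold 0 throughout. Shrinkage of low values was read from the SD across libraries, whose median was 0.0037 among rows of negative mean and 0.122 where the mean was 6 to 8. Sums of linear values were 26610000 to 27497000. The table holds no counts, so no interval of counting error was possible.

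Rows with a name and 1 cpm in at least 3 of the 9 libraries were kept, and 118 repeated rows were dropped. A mean per genotype was fitted to all 9 libraries in limma 3.58.1 (R 4.3.3; lmFit, contrasts.fit, eBayes with a trend), two-sided, with Benjamini-Hochberg adjustment over 14029 genes and a fold limit of 1.5. The fit was tested on simulated data. An exact permutation of 3 libraries against 3 cannot go below p = 0.1 and was not used. Gene positions are from GENCODE (GRCm38), which held 13901 of the genes tested, and promoters from RefSeq (GRCm38.p6).

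The comparison, the gene lists and the rule for named genes were chosen with earlier results of these data known. Named were Gpr161, Wnt1 and H2afv, all genes past the adjusted p, the 10 largest differences in each direction among genes with an unadjusted p under 0.05 and no overlap, up to 4 members of each list with the largest differences, neighbours within 1 Mb, and a few genes chosen after their values were seen. The lists of surface ectoderm, sensory ganglion, motile cilia and endoplasmic reticulum genes were written after the values were seen. Alternatives were other filters, normalizations, covariates and weights, the replicate block, the 6 libraries alone and each library left out in turn. The values of a few genes that these rules name are not reported here.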

Additional observations from a re-analysis of the deposited data

How the results depend on the processing

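Against 4 DEGs and 8 genes past the adjusted p, 2 and 5 were found with no filter on low values (19549 genes), 2 and 5 with the erythroid genes as a covariate, 39 and 217 with array weights, and 39 and 234 with the surface ectoderm level as a covariate, which was chosen after seeing the data. With unadjusted p, 49 genes passed both limits. Genes past the adjusted p numbered 3 with the 6 libraries alone, 13 without the trend and 29 with the Y-linked covariate. Leaving out each library in turn gave 1 to 28 DEGs and 1 to 57 genes past the adjusted p. The highest counts came without Cre control 1 (28 and 57) and the lowest without Cre control 3 (1 and 1), and without floxed controls 1, 2 and 3 or Cre control 2 the counts were 16 and 22, 9 and 24, 2 and 2, and 8 and 14. All 8 reported genes were among those past the threshold with array weights and without Cre control 1, and 7 with the surface ectoderm covariate. The cause of these changes was not tested. With the replicate block, 9 genes passed the adjusted p, among them all 8 reported, and 4 were DEGs. Same-numbered libraries deviated with correlations of 0.102, 0.225 and 0.0462, and not every library correlated best with its own number, so the numbers were not taken to pair the samples. No called difference changed direction. Over the lists and alternatives, 615 list medians stayed within the spread between replicates and 31 moved beyond it. The values bear a limit of 3 libraries per genotype, an unknown depth and shrinkage at low expression.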

Other observations

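Genes of motile cilia, the beating cilia of ependyma and choroid plexus, were lower in 14 of 15 cases with a median difference of -0.285, in a list written after the values were seen. The mean of the list was 7.22, 7.5 and 7.47 in the floxed controls and 7.07, 7.24 and 7.10 in the Cre controls, with floxed control 1 just below Cre control 2. Cfap44 was at 7.75, 8.05 and 7.79 against 7.40, 7.43 and 7.36, a difference of -0.47 without overlap (limma adjusted p = 0.127). Ccdc39 and Cfap69 differed by -0.35 and -0.34, also without overlap. Foxj1, the factor that turns on the motile cilia program, was at 10.02, 10.47 and 10.42 in the floxed controls against 9.98 to 10.02 in the Cre controls, so that floxed control 1 was level with the Cre controls. The choroid plexus genes had the same low library among the floxed controls, and the part of that tissue was not tested.

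Genes for chaperones of the endoplasmic reticulum and the unfolded protein response were higher in 19 of 21 cases with a median of 0.0973, again in a list written after the values were seen. Sdf2l1 was at 8.97, 8.94 and 8.96 in the floxed controls and 9.26, 9.22 and 9.24 in the Cre controls, a difference of 0.28 with replicates close together (limma adjusted p = 0.0623). Manf differed by 0.19, Selenom by 0.32 and Xbp1 by 0.26, all without overlap. Hspa5, the central chaperone of the pathway, was at 13.57, 13.64 and 13.60 against 13.60, 13.83 and 13.88 and overlapped. The stress factors Ddit3 and Atf4 differed by 0.00495 and -0.0324. Mgarp, a mitochondrial protein, was outside every list with a difference of 0.88, at 8.23, 8.04 and 7.99 against 9.37, 8.71 and 8.84 (limma adjusted p = 0.0844).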
